A study of Homo sapiens with 2 samples.

Results

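Genes for regulators of mRNA stability and translation were examined for C-to-U edits in long-read libraries of fixed HEK293T cells. The members were 8 named genes, IGF2BP1, IGF2BP2, IGF2BP3, ELAVL1, PUM2, LIN28B, FXR1 and FMR1. Loci of the deposited isoform models were assigned to annotated genes by their largest same-strand overlap with its exons, and all edited positions of the member loci were taken. A locus was found for 7 of the 8 genes, among 12869 loci with a model, and LIN28B had none. Edited positions were listed for 5 genes, IGF2BP3, ELAVL1, PUM2, FXR1 and FMR1, and for none of IGF2BP1, IGF2BP2 and LIN28B. Together the 5 genes held 121 distinct edited positions of 213041 in the series.

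There were 2 libraries, 1 per group. In the RBFOX2 library, methanol-fixed cells received a rabbit antibody against the splicing regulator RBFOX2 and then the deaminase APOBEC1 fused to a nanobody that binds rabbit IgG, so that cytosines near the antibody could be converted to uracil. In the enzyme-only library the same fusion was applied without the antibody. No other treatment or genetic change was named for either library. HEK293T is an immortalized human embryonic kidney line, which the labels call HEK293XT in their cell line field. No p-value could be computed from 1 library per group. Every comparison is between these libraries rather than between conditions, and intervals are exact Clopper-Pearson 95% intervals that cover counting error only.

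In the RBFOX2 library 121930 distinct positions were listed, and 103684 in the enzyme-only library, of which 86 and 37 lay in the member genes. Genes with a listed position had a median of 96 (RBFOX2) and 87 (enzyme-only) reads, and the 5 member genes had 138 to 737 and 116 to 772. A position was listed only when its converted reads exceeded 0.002 of the reads of its gene, so that positions with 1 converted read appear only in genes of under 500 reads. Of 9 markers of adult kidney segments, only LRP2 had a listed position in either library. Of 6 nephron progenitor genes, 4 (RBFOX2) and 5 (enzyme-only) were listed. Of 4 neuronal genes reported for HEK293 lines, 3 (NEFL, NEFM and INA) were listed in each library. Genes without an edit do not appear in these tables, so a missing marker gives no expression level.

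The proteins encoded by these genes bind mRNA in the cytoplasm and set how long it lasts and how often it is translated. ELAVL1, also known as HuR, binds U-rich and AU-rich elements and protects its targets from decay, and the IGF2BP proteins bind and stabilise transcripts of growth and embryonic development. PUM2 is a Pumilio protein that recruits deadenylases to 3'UTRs, FMR1 and its paralogue FXR1 are KH-domain proteins that bind ribosomes and repress or tune translation, and LIN28B blocks maturation of let-7 microRNAs. Transcripts of such regulators often carry long 3'UTRs that are themselves bound by RNA-binding proteins. RBFOX2 is best known for binding UGCAUG in introns near alternative exons, and also binds this hexamer in 3'UTRs.

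Edited positions listed in only 1 library were compared first. PUM2 had 25 such positions with the RBFOX2 antibody and 4 without it. FMR1 had 20 and 3, ELAVL1 17 and 9, FXR1 16 and 12, and IGF2BP3 6 and 7. PUM2 and FMR1 therefore had several times as many positions in the RBFOX2 library, whereas the counts of FXR1 and IGF2BP3 were close in both. Summed over the 5 genes there were 84 and 35 positions, at 1447 and 1361 reads. Counted as converted reads per 1000 reads of the gene, PUM2 had 135 and 28.4, FMR1 125 and 25.9, FXR1 138 and 94.5, ELAVL1 52.9 and 25.9, and IGF2BP3 29.4 and 34.1. By this measure FXR1 reached the level of PUM2 and FMR1 in the RBFOX2 library, and it stood above the other 4 genes in the enzyme-only library. In ELAVL1, at 737 and 772 reads, positions with 1 converted read could not be listed. Its values are therefore not comparable with those of the other genes.

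**Figure D1:**
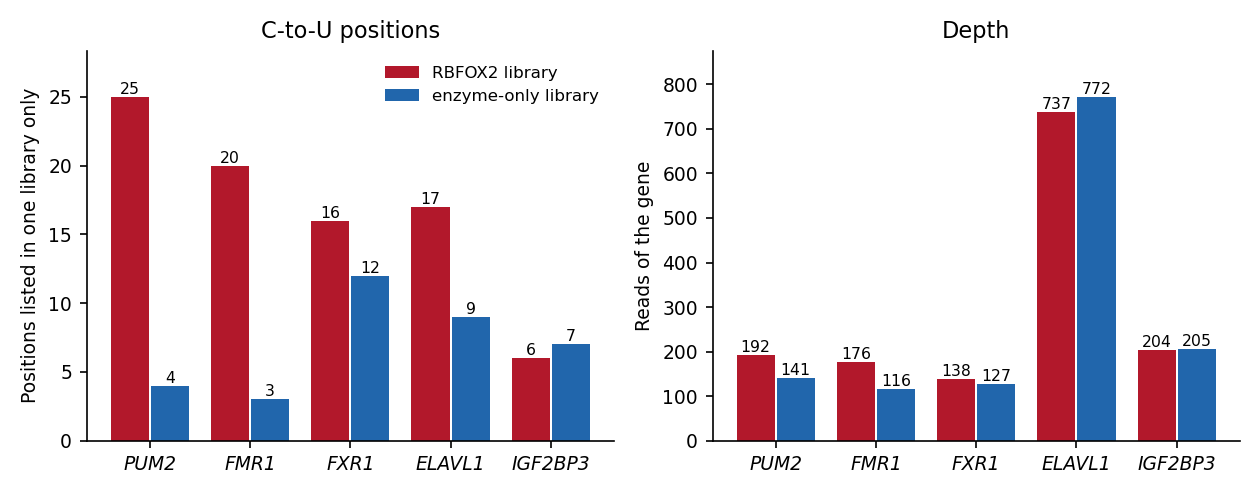
Edited positions listed in 1 library only (left) and reads of the gene (right) for the 5 member genes with listed positions. PUM2 had 25 and 4 positions and FMR1 20 and 3, while the reads of the 5 genes differed by at most 1.52-fold between the libraries.

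The counts were then expressed as a log2 ratio of RBFOX2 over enzyme-only positions, adding 0.5 to each count and scaling by the totals of 109357 and 91111 unshared positions. The ratio of FMR1 was 2.29 (0.72 to 4.87) and that of PUM2 was 2.24 (0.85 to 4.36), both with intervals above 0. The ratio of ELAVL1 was 0.62 (−0.59 to 2.00), that of FXR1 0.14 (−1.02 to 1.36) and that of IGF2BP3 −0.47 (−2.33 to 1.31), all with intervals that include 0, so that no difference was detectable in these 3 genes at this depth. In order of the ratio, FMR1 and PUM2 overlapped almost entirely, and the intervals of all 5 genes overlapped.

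Ratios past 2-fold were read against all loci with at least 20 unshared positions. Over 1 lay 605 of 3604 loci (16.8%), and under −1 lay 526 (14.6%). Of the 4 members with at least 20 positions, 2 were over 1, PUM2 and FMR1, and 0 were under −1. FMR1 ranked 79 and PUM2 85 from the top, ELAVL1 ranked 1004 and FXR1 1717. The median of all loci was 0.08, with quartiles at −0.54 and 0.70. Among 1466 loci with 100 to 250 reads in both libraries, a range that holds PUM2, FMR1 and FXR1, the share over 1 was 15.4% and the 95th percentile was 1.61, with 0.750% of loci above FMR1 and 0.887% above PUM2.

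**Figure D2:**
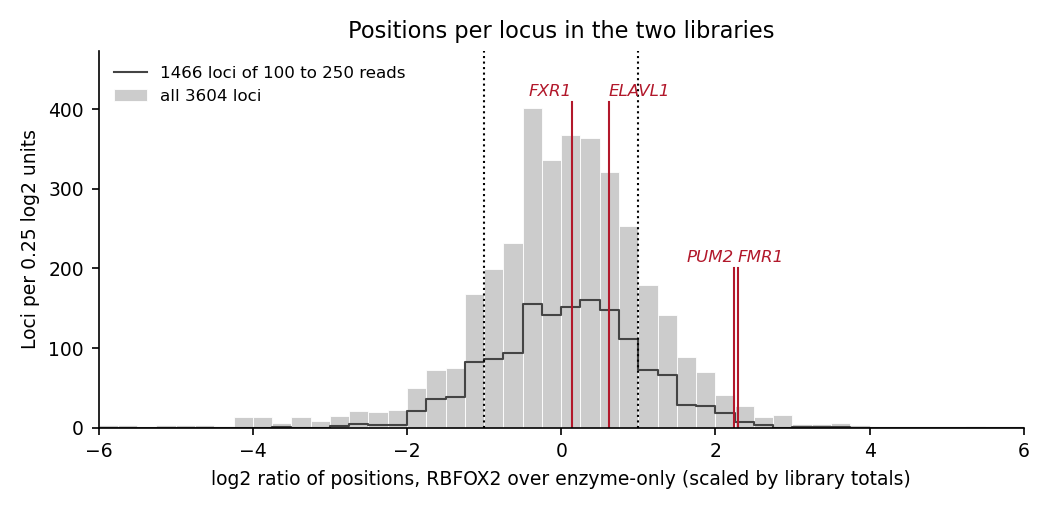
Number of loci by log2 ratio of edited positions in bins of 0.25, for all 3604 loci with at least 20 unshared positions (grey bars) and for the 1466 of them with 100 to 250 reads in both libraries (line). Red lines mark the 4 members with at least 20 positions, and dotted lines mark ratios of −1 and 1, with PUM2 (2.24) and FMR1 (2.29) in the upper tail.

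The reads of PUM2 and FMR1 also differed between the libraries. PUM2 had 192 (RBFOX2) and 141 (enzyme-only) reads, a ratio of 1.36, and FMR1 had 176 and 116, a ratio of 1.52. Scaled by the reads of the gene in place of the library totals, the log2 ratios of positions were 2.06 for PUM2 and 1.95 for FMR1. Summed over the 5 genes the ratio was 0.99 (0.41 to 1.61), and without PUM2, with 59 and 31 positions, it was 0.65 (0.01 to 1.34). FMR1 supplied 20 and 3 of these 59 and 31 positions. Most positions rested on 1 converted read. At least 2 converted reads were found at 1 of 25 RBFOX2 positions in PUM2, 1 of 20 in FMR1 and 2 of 16 in FXR1, and at 0 of the 4, 3 and 12 enzyme-only positions of these genes. On those positions alone the log2 ratio of both PUM2 and FMR1 was 0.72, no longer over 1, and rested on 1 RBFOX2 position each. All 17 and 9 positions of ELAVL1 had at least 2, which its depth of 737 and 772 reads requires.

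PUM2 represses and destabilises mRNAs with Pumilio elements in their 3'UTRs. Its locus (chr2:20248717-20263458, minus strand, hg38) had 12 isoform models that touched only 8 of the 21 exons of the reference transcript, so that its upstream coding exons were not measured. In the 3'UTR 23 of 451 cytosines were listed in the RBFOX2 library, an edited share of 5.10% (3.26 to 7.55), against 2 in the enzyme-only library, 0.44% (0.05 to 1.59). In the measured coding sequence 2 of 255 cytosines were listed in each library. The 2 libraries thus differed in the 3'UTR of PUM2 and had the same count in its coding sequence.

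The 23 RBFOX2 positions in the 3'UTR of PUM2 ran from 33 to 2569 nt after the stop codon, with a median gap of 75 nt between neighbours. The models ended in groups that divide this 3'UTR into 6 segments. In the first 326 nt, up to the first group of model ends, 6 of 41 cytosines were listed (14.6%, 5.57 to 29.2), and 14 of 149 (9.40%, 5.23 to 15.3) in the next 1199 nt. In the last 953 nt, 1 of 199 was listed (0.50%, 0.01 to 2.77). The 3 segments between, of 214, 55 and 94 nt, held 1 of 38, 1 of 5 and 0 of 14. The intervals of the first and the second segment overlapped, and that of the last lay under both. The enzyme-only library had 2 positions in the second segment and 0 in the others. Reads were deposited per gene and not per model, so how many reads reached the last segment is unknown.

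The 3'UTR of PUM2 held 0 copies of UGCAUG and 10 copies of UGUAUA, a hexamer that forms part of some Pumilio recognition elements (UGUANAUA), of which there were 2 in the same 3'UTR. Of the 25 RBFOX2 positions, 13 lay within 50 nt of UGUAUA on the same strand, 52.0% (31.3 to 72.2), against 17.0% of all exonic cytosines of PUM2. Restricted to the 3'UTR, the shares were 13 of 23 positions, 56.5% (34.5 to 76.8), and 25.9% of cytosines. The latter base includes the 199 cytosines of the last segment, whose depth is unknown. In the enzyme-only library 1 of 4 positions lay as near. UGUAUA was chosen with earlier results of these data known, so these shares are descriptive and do not test an enrichment. The windows of 4 such positions, picked after their values were seen, are shown because they place the converted cytosine beside the hexamer. Each is 29 nt of the transcribed strand, 5′ to 3′, with the converted C and UGUAUA in capitals, at chr2:20251302-20251330, chr2:20251413-20251441, chr2:20250878-20250906 and chr2:20249801-20249829.
PUM2 position 20251316, 2 converted reads of 192: UGUAUAugauguaaCuguaucaaaaauaa
PUM2 position 20251427, 1 converted read: aauuuuuuaagguuCuugUGUAUAuuugg
PUM2 position 20250892, 1 converted read: aaauauUGUAUAuaCuuacauauguaauu
PUM2 position 20249815, 1 converted read: UGUAUAuucaguuuCugaaagauaaagaa
Position 20251316 had the most converted reads of any PUM2 position, and none of the 4 was listed in the enzyme-only library.

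FMR1 encodes FMRP, the translational repressor lost in fragile X syndrome. Its locus (chrX:147912091-147951112, plus strand) had 13 models that touched 16 of 17 reference exons. In the 3'UTR 17 of 314 cytosines were listed in the RBFOX2 library, an edited share of 5.41% (3.19 to 8.53), and 2 in the other, 0.64% (0.08 to 2.28). The coding sequence held 2 and 1 of 322. As in PUM2, the intervals of the libraries were apart in the 3'UTR and overlapped in the coding sequence. All 17 RBFOX2 positions lay in the first 1792 nt of the 3'UTR, where 246 cytosines gave a share of 6.91% (4.08 to 10.8). In the next 476 nt 0 of 68 cytosines were listed in either library (95% interval up to 5.28%). This limit assumes that reads covered the 68 cytosines, and how many reached them is unknown.

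FMR1 had 1 UGCAUG in its 3'UTR, at chrX:147949516-147949521, 672 nt after the stop codon. Within 50 nt of it lay 3 of the 20 RBFOX2 positions, 15.0% (3.21 to 37.9), against 1.96% of the exonic cytosines of FMR1, and 0 of 3 enzyme-only positions. The nearest, 147949539, lay 18 nt 3' of the hexamer with 1 converted read, 147949495 lay 21 nt 5' of it with 1, and 147949543 lay 22 nt 3' of it with 3 of 176 reads. The last had the most converted reads of FMR1 in either library and was the only RBFOX2 position of the members near UGCAUG with at least 2. The base of 1.96% is 17 of 866 exonic cytosines of all regions. Only 314 of the 866 (36.3%) lay in the 3'UTR, where this hexamer and 17 of the 20 RBFOX2 positions lay. A base of 3'UTR cytosines alone was not computed, so no enrichment near UGCAUG can be read from these shares. The window chrX:147949514-147949543 is shown because it joins the hexamer to both positions on its 3' side, with UGCAUG and the converted cytosines in capitals.
FMR1 3'UTR, 5′ to 3′: aaUGCAUGcuuuccauauuuuuuucCuuaC
The 2 enzyme-only positions in this 3'UTR, at 1356 and 1480 nt after the stop codon, lay outside this neighbourhood.

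FXR1, the paralogue of FMR1, is a translational regulator of muscle and other tissues. Its locus (chr3:180912471-180977160, plus strand) had 36 models over all 17 reference exons. These reached 868 nt into a reference 3'UTR of 6461 nt, so that most of it was not measured. The distribution of its positions differed from that of PUM2 and FMR1, since 12 of 16 RBFOX2 positions lay in coding sequence and 4 in the 3'UTR, against 6 and 6 of 12 in the enzyme-only library. Of 359 coding cytosines 3.34% (1.74 to 5.77) were listed with the antibody and 1.67% (0.62 to 3.60) without, and of 129 in the 3'UTR 3.10% (0.85 to 7.75) and 4.65% (1.73 to 9.85). The intervals overlapped in both regions. Of the coding positions, 10 and 6 are also annotated as 3'UTR in another FXR1 transcript, and counted as 3'UTR they would give 14 of 16 and 12 of 12.

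The FXR1 positions with more than 1 converted read were both in the 3'UTR and in the RBFOX2 library. They are shown with the converted C in capitals because their surroundings differ, at chr3:180976336-180976364 and chr3:180977060-180977088.
FXR1 position 180976350, 2 converted reads of 138: caauagugcuuguaCaagcuugccaaaga
FXR1 position 180977074, 3 converted reads of 138: uaucuuuuuuuuuuCcuuuuuuuuuuuuu
The second window lies in a run of U near the end of the models, broken by this cytosine and the next one, 180977075, which each library listed with 1 converted read. There was no UGCAUG in the 3'UTR of FXR1.

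ELAVL1 is the ubiquitous member of the Hu family of mRNA-stabilising proteins. Its locus (chr19:7948373-8006034, minus strand) had 16 models over all 6 reference exons. In the 3'UTR 16 of 255 cytosines were listed in the RBFOX2 library, 6.27% (3.63 to 9.99), and 4 in the enzyme-only library, 1.57% (0.43 to 3.97), while in the coding sequence 1 and 3 of 261 were listed. The summed ratio of 17 and 9 positions thus held opposite directions in these regions, although neither pair of intervals was apart. The RBFOX2 positions ran from 3 to 1104 nt after the stop codon at a median gap of 46 nt. Models that ended in the reference 3'UTR did so at most 1207 nt after the stop codon. The reference 3'UTR is 4910 nt long, so that its distal part was not measured. The model PB.46573.1 ended at chr19:7948373, past the annotated end of the gene at 7958573. Of the 789 exonic cytosines of ELAVL1, 193 lay outside the annotated gene.

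In ELAVL1 the highest number of converted reads at an unshared RBFOX2 position was 3 of 737, reached at 5 positions of the 3'UTR. Of these, the position nearest to the stop codon and that farthest from it are shown, followed by the position of the enzyme-only library with the most converted reads, which lay in the 5'UTR, the enzyme-only position beside UGCAUG and the position listed in both libraries. The windows are chr19:7963466-7963494, chr19:7962365-7962393, chr19:8005594-8005622, chr19:7962691-7962719 and chr19:7963204-7963232, with the converted C and any UGCAUG in capitals.
ELAVL1 position 7963480, RBFOX2 library, 3 converted reads: ucccacaaauaacuCgcucaugcuuuuuu
ELAVL1 position 7962379, RBFOX2 library, 3 converted reads: cauaacugccuugaCauuuuggguuguuc
ELAVL1 position 8005608, enzyme-only library, 4 converted reads of 772: cgcugccgccgucgCcgucgccgccaccg
ELAVL1 position 7962705, enzyme-only library, 2 converted reads: cgaguuucuguccaCacauUGCAUGcaca
ELAVL1 position 7963218, both libraries, 5 and 2 converted reads: uagaacugcauugaCuaaccagucccucu
Although the 3'UTR of ELAVL1 held 2 copies of UGCAUG, at 605 and 783 nt after the stop codon, 0 of its 17 RBFOX2 positions lay within 50 nt of either, and 8.49% of its exonic cytosines did. The enzyme-only position 7962705 lay 5 nt 5' of the second copy.

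IGF2BP3, an oncofetal mRNA-stabilising protein, gave the fewest positions in total. Its locus (chr7:23310210-23470488, minus strand) had 14 models over all 15 reference exons and almost equal depth, 204 and 205 reads. In each library 5 of 368 cytosines of the 3'UTR were listed, 1.36% (0.44 to 3.14), and 1 and 2 of 405 coding cytosines. Every position had 1 converted read, and the 3'UTR held no UGCAUG. In the edited share of the 3'UTR the RBFOX2 values of PUM2 and FMR1 had intervals above that of IGF2BP3. ELAVL1 is left out of this comparison, since its depth admits only positions with at least 2 converted reads.

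The other IGF2BP genes had models that touched all their reference exons. IGF2BP1 (chr17:48997176-49051154, plus strand) had 13 models with 1157 exonic cytosines and IGF2BP2 (chr3:185643987-185825043, minus strand) had 14 models with 1230. None of these cytosines was listed in either library, and since reads were given only for genes with a listed position, the depth behind this is unknown and no limit can be given. The UGCAUG in the 3'UTR of IGF2BP2 lay 2161 nt after the stop codon, outside the models, and IGF2BP1 had none in its 3'UTR of 6701 nt. LIN28B, which had no model, gave no value of any kind.

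**Figure D3:**
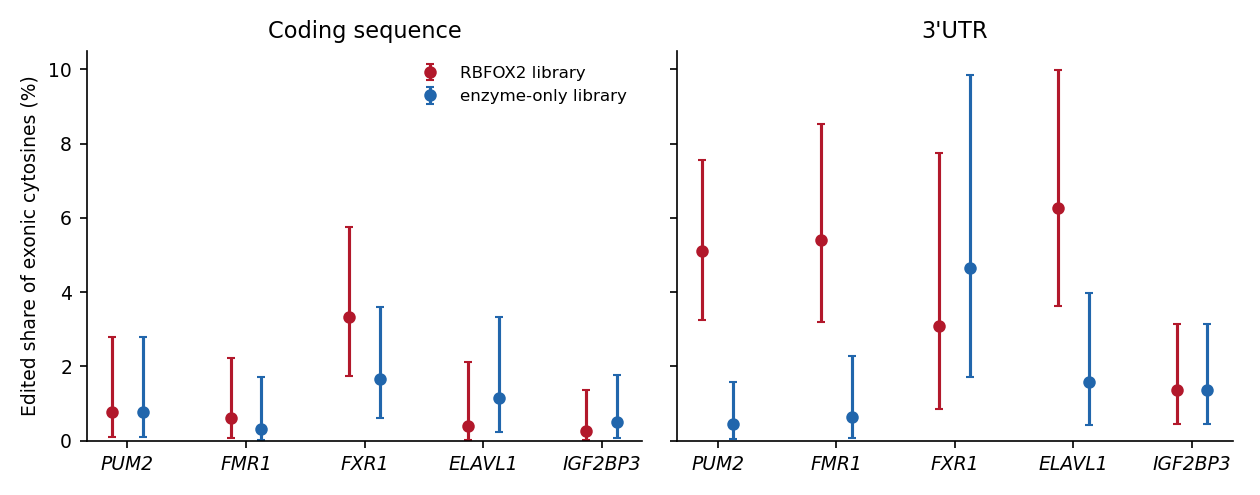
Edited share of cytosines in the coding sequence (left) and the 3'UTR (right) of the 5 member genes, as points with exact 95% intervals, for positions listed in 1 library only. The intervals of the 2 libraries are apart in the 3'UTRs of PUM2 (5.10% and 0.44%) and FMR1 (5.41% and 0.64%).

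Summed over the 5 genes, 65 of 84 RBFOX2 positions lay in a 3'UTR, 77.4% (67.0 to 85.8), against 19 of 35 enzyme-only positions, 54.3% (36.6 to 71.2), and 40.1% of the exonic cytosines. Without PUM2 the shares were 71.2% (57.9 to 82.2) and 54.8% (36.0 to 72.7). With positions annotated as both counted as 3'UTR, the shares of all 5 genes were 92.9% and 82.9%, so that the gap narrowed. In all other genes, 41.6% of RBFOX2 and 35.6% of enzyme-only positions lay in a 3'UTR. The edited share of 3'UTR cytosines was 4.28% (3.32 to 5.43) with the antibody and 1.25% (0.76 to 1.95) without it, whereas that of coding cytosines was 1.12% (0.67 to 1.77) and 0.87% (0.48 to 1.46). The intervals of the libraries were apart in the summed 3'UTRs and overlapped in the summed coding sequences. Gene by gene they were apart only in the 3'UTRs of PUM2 and FMR1. They overlapped in those of ELAVL1 (16 and 4 positions), FXR1 (4 and 6) and IGF2BP3 (5 and 5). Without PUM2 the summed 3'UTR shares were 3.94% (2.85 to 5.29) and 1.59% (0.93 to 2.54), also apart. FMR1 supplied 17 of the 42 RBFOX2 and 2 of the 17 enzyme-only positions in this sum. A sum without PUM2 and FMR1 was not computed, so the sums show no difference in the remaining genes.

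**Figure D4:**
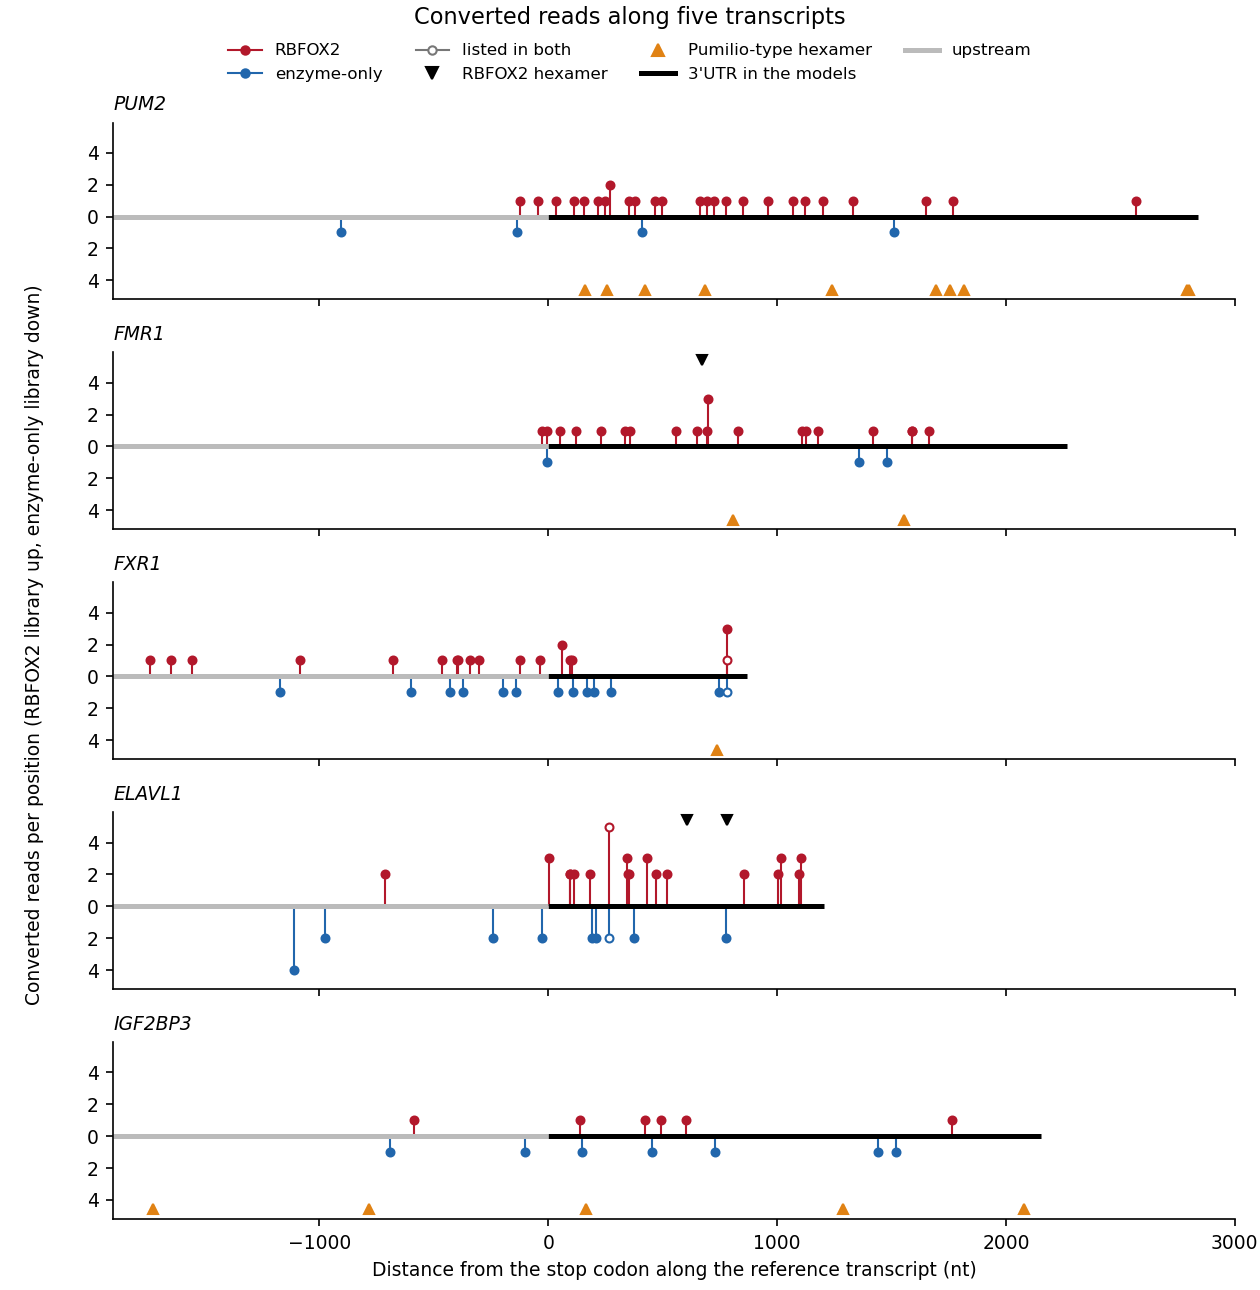
Converted reads at each edited position against the distance from the stop codon in nt, for the RBFOX2 library (up) and the enzyme-only library (down), with open circles for positions listed in both libraries. Triangles mark UGCAUG (black) and UGUAUA (orange), black bars the 3'UTR within the models, and 2 positions outside the reference transcripts are not drawn. The 3'UTRs of PUM2 and FMR1 hold 23 and 17 RBFOX2 positions and 2 enzyme-only positions each.

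APOBEC1 is known to prefer a cytosine with A or U on its 5' side, so that base was counted. A or U preceded 75 of 84 RBFOX2 positions, 89.3% (80.6 to 94.98), and 27 of 35 enzyme-only positions, 77.1% (59.9 to 89.6), against 53.0% of the exonic cytosines of these genes. The intervals of the libraries overlapped. A alone preceded 58.3% and 42.9%, and 25.8% of cytosines. In all other genes A or U preceded 71.6% and 63.8% of positions. In ELAVL1 all 17 RBFOX2 positions and 7 of 9 enzyme-only positions had A or U, where 42.3% of its cytosines did. Among the windows above, A or U preceded the converted cytosine in all but the FMR1 position 147949539, preceded by C, and the enzyme-only position in the 5'UTR of ELAVL1, preceded by G.

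Motifs were counted on the transcribed strand within 50 nt of a position and divided by an expected share, the share of all exonic cytosines of each gene averaged with the number of its positions as weight. The expected share covered all regions, although most RBFOX2 positions lay in 3'UTRs. UGCAUG lay near 3 of 84 RBFOX2 positions, all in FMR1, a ratio of 1.63 (0.34 to 4.60), and near 1 of 35 enzyme-only positions, the one in ELAVL1, a ratio of 1.20 (0.03 to 6.28). In all other genes 3.95% of RBFOX2 and 2.32% of enzyme-only positions lay as near, and in the members 3.57% and 2.86%. With these counts an enrichment was not detectable in either library, and the RBFOX2 ratio was 0.68 at positions with at least 2 converted reads. The core GCAUG, which includes every UGCAUG, lay near 9 and 4 positions, with ratios of 1.20 (0.56 to 2.17) and 1.60 (0.45 to 3.74).

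UGUAUA lay near 18 of 84 RBFOX2 positions, 21.4% (13.2 to 31.7), a ratio of 2.65 (1.64 to 3.93), and near 3 of 35 enzyme-only positions, 8.57% (1.80 to 23.1), a ratio of 1.38 (0.29 to 3.71). In all other genes the shares were 3.73% and 2.72%. PUM2 supplied 13 of the 18 positions, and without it 5 of 59 RBFOX2 positions lay near UGUAUA, 8.47% (2.81 to 18.7), a ratio of 1.98. This interval includes 5.65%, the share of all exonic cytosines without PUM2, so that no enrichment was detectable outside PUM2. Of the other 5, 3 lay in FMR1, 1 in FXR1 and 1 in IGF2BP3. The intervals of the 2 libraries overlapped, and the hexamer was chosen with earlier results of these data known.

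In the reading frames of the reference transcripts, the 18 coding positions of the RBFOX2 library comprised 5 synonymous changes, 11 that would change an amino acid and 2 that would create a stop codon. The 14 of the enzyme-only library comprised 5, 9 and 0. Of all 1563 coding cytosines, 36.7%, 53.4% and 9.92% would give these outcomes, so the observed shares of 27.8% (9.69 to 53.5) and 35.7% (12.8 to 64.9) synonymous positions did not stand apart. The positions that would create a stop codon were in FXR1 and FMR1, with 1 converted read each, at chr3:180970266-180970294 and chrX:147948801-147948829 with the converted C in capitals.
FXR1 position 180970280, 341 nt before the end of the stop codon: ggcggucucguagaCgaaggacugaugaa
FMR1 position 147948815, 29 nt before the end of the stop codon: acagcguggaugguCagcaaccacucgug
At 1 read of 138 and 1 of 176 these edits affected 0.72% (0.02 to 3.97) and 0.57% (0.01 to 3.12) of the reads of their genes.

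Isoforms were compared by editsC, the share of the exonic cytosines of a model that were listed as edited. Of 91 models of the 5 genes, editsC was higher in the RBFOX2 library in 66, lower in 12 and equal in 13. Models of a gene share positions and are not replicates. EditsC was not scaled by the library totals of 109357 and 91111 unshared positions. The share of higher models over the whole series was not computed, so the count of 66 is no result about these genes. Reads were deposited per gene, so a position was counted in every model whose exons contain it. All 12 PUM2 models and all 36 FXR1 models were higher, as were 10 of 13 FMR1 models, with the other 3 at 0% in both libraries. The 36 FXR1 models drew on the same 16 and 12 positions, whose scaled log2 ratio was 0.14 (−1.02 to 1.36). Of ELAVL1, 8 models were higher and 6 lower, and of IGF2BP3, 0 were higher and 6 lower. The intervals of the libraries were apart in 18 models, 8 of PUM2 and 10 of FMR1.

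**Figure D5:**
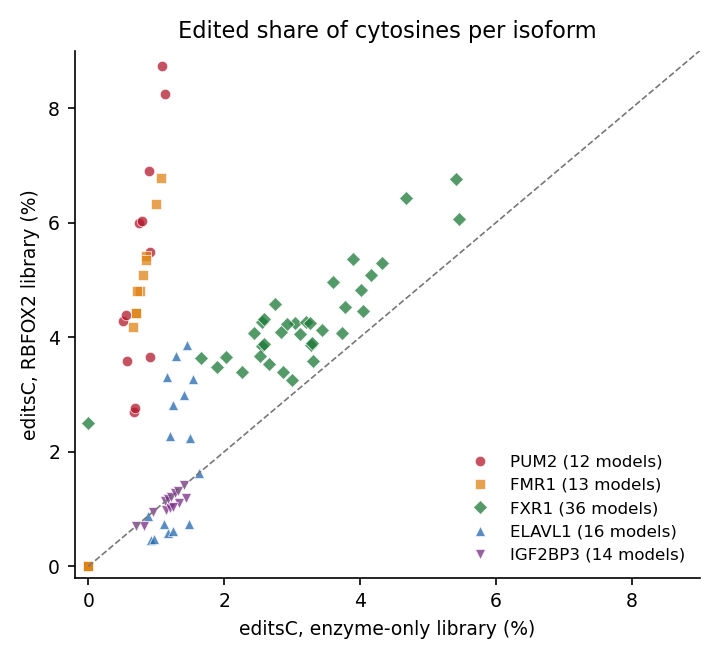
EditsC of each isoform model in the RBFOX2 library against the enzyme-only library, in percent, with the dashed line at equality. PUM2 and FMR1 models lie far above the line at medians of 4.94% and 4.81% against 0.77% and 0.72%, FXR1 models lie nearer above it, and IGF2BP3 models lie on or just under it.

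In PUM2, FMR1 and ELAVL1 the largest difference, among models with at least 200 cytosines, was found in a model of 2 exons. In PUM2 it was PB.5502.11, of 2012 nt, where editsC was 8.73% (5.67 to 12.7) with the antibody and 1.09% (0.23 to 3.15) without. The PUM2 model with the most cytosines, PB.5502.4 with 8 exons, gave 3.58% (2.33 to 5.24) and 0.57% (0.16 to 1.46). In FMR1 the model PB.52641.20, of 1945 nt, gave 6.79% (4.13 to 10.4) and 1.07% (0.22 to 3.10), and PB.52641.7 with 9 exons gave 4.18% (2.53 to 6.44) and 0.66% (0.14 to 1.92). In both genes the shorter model had the higher editsC in both libraries, since it held most of the same positions among fewer cytosines. In the RBFOX2 library PUM2 had 24 of 275 cytosines listed in the shorter model and 25 of 698 in the longer. FMR1 had 19 of 280 and 19 of 455. This order follows from exon content and does not measure editing of single isoforms.

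In ELAVL1 the model PB.46573.15, of 2 exons, gave 3.86% (2.23 to 6.20) and 1.45% (0.53 to 3.13), and PB.46573.9 with all 6 exons 2.28% (1.34 to 3.63) and 1.21% (0.55 to 2.28), with overlapping intervals. The median editsC of FXR1 models was 4.11% (RBFOX2) and 3.08% (enzyme-only), the highest enzyme-only median of the 5 genes. Its model PB.13317.10, with all 17 exons, gave 3.54% (2.04 to 5.68) and 2.65% (1.38 to 4.59), and PB.13317.2, which had the largest difference, 3.64% (1.83 to 6.42) and 1.66% (0.54 to 3.82). In IGF2BP3 the model PB.22374.1 with 15 exons gave 0.71% (0.26 to 1.53) and 0.83% (0.33 to 1.69), and PB.22374.6 with 3 exons 1.20% (0.39 to 2.78) and 1.44% (0.53 to 3.11). In FXR1 and IGF2BP3 the intervals of these models overlapped.

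A list of 74 related genes, among them other Pumilio, Hu and FMR1-family genes, deadenylase and decapping subunits and poly(A)-binding proteins, was examined in the same way. Of these 63 had a locus, 58 had a listed position and 22 had at least 20 unshared positions. Over 1 lay 5 of the 22 (22.7%) and under −1 lay 1 (4.55%), against 16.8% and 14.6% of all loci, and their median log2 ratio was 0.44 against 0.08 for all loci. UPF1, the helicase of nonsense-mediated decay, was highest at 2.71 (1.21 to 5.27), with 27 and 3 positions, of which 20 and 2 lay in its 3'UTR. YTHDF1, a reader of N6-methyladenosine, had 24 and 8 positions, a ratio of 1.26 (0.12 to 2.69), and HNRNPD, an AU-rich element binding protein, had 17 and 6, a ratio of 1.17 (−0.17 to 2.87).

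The lowest of the related genes was CNOT7, a deadenylase subunit, at −1.70 (−2.62 to −0.90) with 17 and 47 positions. Its reads numbered 529 (RBFOX2) and 437 (enzyme-only), so that only the enzyme-only library could list its positions with 1 converted read. The stress granule protein gene G3BP2 followed at −0.44 (−1.55 to 0.65) and CNOT1, the scaffold of the deadenylase complex, at −0.42 (−1.27 to 0.40). Nearest to the members summed were STAU1, a double-stranded RNA-binding protein, at 1.07 (0.28 to 1.96), the decapping factor PATL1 at 0.89 (−0.51 to 2.63) and G3BP1 at 0.87 (0.04 to 1.82). Of the RBFOX2 positions of these 3 genes, 31 of 46, 12 of 14 and 33 of 38 lay in the 3'UTR, and of those of YTHDF1 22 of 24. The numbers were 7 of 17 in HNRNPD, 6 of 15 in G3BP2, 3 of 25 in CNOT1 and 2 of 17 in CNOT7.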

How the data were processed

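Per the labels, libraries were made with a PacBio Iso-Seq kit. The authors' methods describe another kit, pbmm2 alignment to hg38 and replicates that were not used here, and whether they refer to the same run is not stated. For each position the authors deposited the counts of converted reads and of reads of its gene, and a fraction that equals their quotient and always exceeded 0.002. Isoform models came as exon positions without expression values. A position listed under several loci was kept once, which left 121930 of 122035 and 103684 of 103776 rows. Positions in both libraries were left out unless stated, and removal of dbSNP variants was not repeated. Genes, regions (coding sequence before 3'UTR) and reference transcripts came from GENCODE 44 with bedtools 2.31.1. Intervals used scipy 1.17.1, and figures matplotlib 3.10.9. The ratio calculation was tested on simulated data.

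Members and lists, UGUAUA included, were chosen with earlier results of these data known. Named were all members, their positions with the most converted reads, positions near UGCAUG with at least 2, the models with the most cytosines and with the largest difference (at least 200 cytosines), and the 3 highest, 3 lowest and 3 nearest related genes. The other sequences shown and counts were picked after their values were seen. Alternatives were shared positions, pseudocount, scaling, read minimum, converted reads, window, distance and region order. Those without PUM2 and with 100 to 250 reads were added after seeing the data.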

Additional observations from a re-analysis of the deposited data

Results flagged for a closer look

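Loci without an isoform model lay inside the spans of member genes. Their positions entered the library totals used for scaling, but not the counts of the members. They held 7 edited positions in the RBFOX2 library, 6 of them within IGF2BP3 and 1 within FXR1, and 2 in the enzyme-only library, 1 within FXR1 and 1 within FMR1. These loci had at most 5 reads.

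The ELAVL1 position chr19:7963218, 265 nt after the stop codon, was left out of the comparisons because it was listed in both libraries. It had 5 converted reads of 737 in the RBFOX2 library, 0.68% of the reads of the gene, and 2 of 772 in the enzyme-only library, 0.26%. It had the most converted reads of any member position.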

How the results depend on the processing

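No paired analysis was possible because each group has 1 library and the labels' numbers 1 and 2 pair nothing. Of 70 recomputed values, 61 stayed within their limits, 9 changed and 0 reversed. With at least 2 converted reads, the log2 ratio of the members summed was 0.32, those of PUM2 and FMR1 0.72, that of FXR1 1.46 and that of ELAVL1 0.02, IGF2BP3 gave no value, 100% of RBFOX2 positions had A or U before the cytosine, and 95.2% lay in a 3'UTR. ELAVL1 supplied 17 of the 21 RBFOX2 positions left, and its own ratio moved because the library totals changed with the setting. The ratio of observed to expected UGCAUG, whose interval included 1, passed to under 1 at that setting in the RBFOX2 library (0.68) and with a window of 200 nt in the enzyme-only library (0.74). Counting positions annotated as both as 3'UTR gave 3'UTR shares of 92.9% and 82.9%. With at least 50 positions, 119 loci were over 1 and 108 under −1, since fewer loci were tested, and no member remained. The same read minimum in both libraries gave 544 and 465 of 3461 loci. Depth limits every member, with 116 to 772 reads and mostly 1 converted read per position. Among the coding sequences and 3'UTRs, only the 3'UTRs of PUM2 and FMR1 and those of the members summed gave intervals that were apart. The summed 3'UTRs were apart with or without PUM2, but FMR1 was kept in both sums, so neither shows a difference in the remaining genes.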
